A study of Mus musculus with 16 samples.

Results

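The comparison described here set Ba/F3 cells in which FOXO4 had been switched on for 8 h against the same cell line at time 0. It rests on the 4 arrays whose source label names the FOXO4 line at 8 h, out of 16 arrays in the series, so the label chose the arrays and no measured value did. Ba/F3 cells are a permanent mouse line, usually described as pro-B, that needs interleukin-3 (IL-3), which the medium contained per the labels' growth protocol. The FOXO4 line is 1 clone, made by electroporating a plasmid for FOXO4(A3)-ER and selecting with G418. FOXO4(A3)-ER joins a FOXO4 whose sites for the kinase PKB are replaced (A3) to an oestrogen receptor domain (ER) that 4-hydroxytamoxifen (4-OHT) switches on. On each array 1 treated culture was hybridised together with the FOXO4 line's time 0 pool, in opposite dyes. The groups set beside it were the same line after 2 h of 4-OHT, against the same pool, and a clonal FOXO3(A3)-ER line after 8 h of 4-OHT, against its own pool, with 4 arrays each. The series text calls the 4 replicates of a time independent, and p-values measure the spread between these arrays, since each line has 1 time 0 pool. The arrays used here include no parental Ba/F3 cells and no culture left without 4-OHT for the same hours, so the action of FOXO4 cannot be told apart from that of 4-OHT or of time in culture. In RNA of whole cultures, fewer cells of a type and less RNA per cell cannot be told apart either.

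FOXO proteins are forkhead transcription factors that the PI3K and PKB (AKT) pathway keeps out of the nucleus when growth factors or cytokines such as IL-3 are present. When the pathway is off they enter the nucleus, bind DNA at a core known as the FOXO motif and raise genes of cell cycle arrest, cell death, stress defence, autophagy and nutrient handling. In cells of the B lineage they are known for roles in survival, proliferation and the rearrangement of antibody genes. The series title names glutamine metabolism and autophagy as the subject.

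Values are log2 ratios of the treated culture over the time 0 pool, so 1 is a fold change of 2. Fitted ratios are given with the standard error (SE) of a limma fit over all 16 arrays (n = 4 per group), and a gene counts as called where the Benjamini-Hochberg adjusted p over the 17484 genes tested was under 0.05. On the 4 arrays of FOXO4 at 8 h the median spot signal ran from 117 to 135 for Cy5 and from 138 to 161 for Cy3, with local background at 38 to 40 in Cy5 and 41 to 43 in Cy3. Of the gene probes 96.8% to 97.0% exceeded local background, but 34.2% to 41.4% exceeded the 95th percentile of external control spots. That percentile was taken over the control types without a detectable signal, which is one over 5 times the median of all control spots. Genes under that percentile are termed dim and the others bright. A dim signal at time 0 makes a ratio look smaller, since an offset of 50 was added before taking logs. Of the markers that check the cell type, 2 of 18 B-lineage genes (Cd79b and Tcf3) were above that percentile in either channel on 4 of 4 arrays. In contrast, Cd79a, Pax5, Ebf1, Rag1, Rag2, Igll1, Vpreb1 and Il7r were dim on 4 of 4. Cpa3, a mast cell gene, had a high log2 signal of 14.5 to 15.1 in treated cells and 14.4 to 15.2 at time 0. Its second probe had a mean log2 signal of 8.2 over all 16 arrays. Only 4 of the 23 mast cell, basophil and myeloid genes were bright. The markers alone therefore do not settle the pro-B name.

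Dye orientation moved the ratios more than the treatment did. Replicates 2 and 4 carried the treated RNA in Cy5 and replicates 1 and 3 in Cy3. Over 17484 genes the 2 arrays of the Cy5 orientation correlated at r = 0.91 and the 2 of the Cy3 orientation at r = 0.93, whereas pairs across orientations lay between -0.20 and -0.18. The fit therefore held a dye term for each gene, whose SD over genes was 0.212, beside an SD of 0.187 for the fitted ratio of treated over time 0. Values by array are printed in the order of replicates 1 to 4 so that both orientations can be seen. Of 3227 genes called, 2644 (81.9%) had the same sign on 4 of 4 arrays and 384 (11.9%) had opposite signs in the means of the 2 orientations. All 84 called genes with a log2 ratio of at least 1 in size had the same sign on 4 of 4 arrays.

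**Figure D1:**
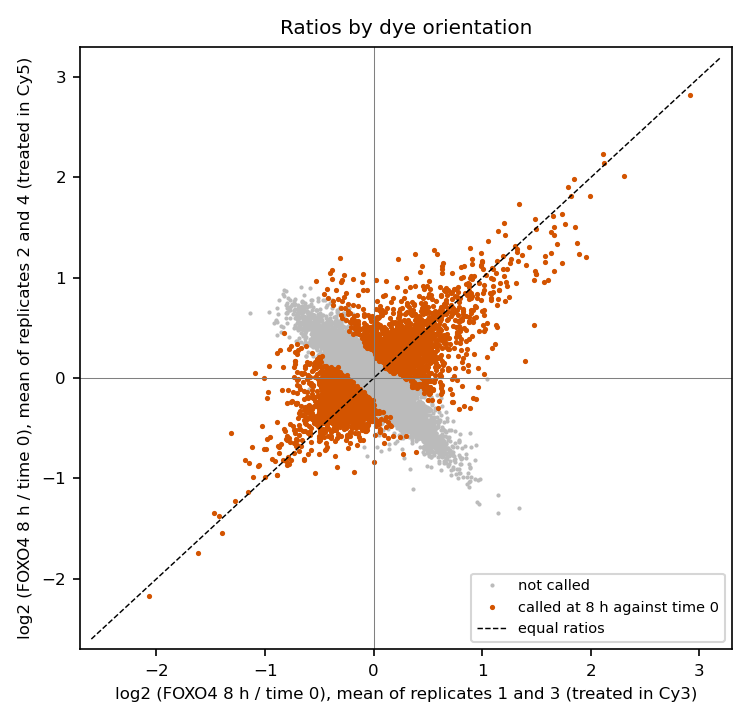
Each point is 1 of 17484 genes, with the mean log2 ratio (FOXO4 8 h over time 0) of replicates 1 and 3, treated in Cy3, on the horizontal axis and that of replicates 2 and 4, treated in Cy5, on the vertical axis. Genes called at 8 h against time 0 are in orange and the others in grey. The grey cloud runs from upper left to lower right, where a dye effect puts genes, and the genes of largest ratio lie near the dashed line of equal ratios.

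After 8 h of FOXO4 activation 1697 genes (9.71% of those tested) rose and 1530 (8.75%) fell, together 18.5%. The change was small for most of them: 2767 of the 3227 (85.8%) differed by less than 0.5 on the log2 scale, a fold change of 1.41, and the median size was 0.26. A rise of at least 1 was seen for 75 genes (0.429%) and a fall of at least 1 for 9 (0.0515%). The median over all genes was -0.01. Of the calls 52.6% were higher. That share was 30.9% when arrays were centred on the external control spots, which moved the median of all genes to -0.12, and 63.2% with median centring in place of loess, so the balance of rises and falls depends on the centring. Centring on the external control spots, here and below, used the 144 spots of the 1 control type of 14 with a detectable signal. Without the dye term 1608 genes were called.

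The gene that rose most was Noct, which encodes nocturnin, a clock-controlled phosphatase of NADPH. It stood at 2.80, 2.85, 3.03 and 2.80 in replicates 1 to 4. All 4 arrays lay far above 0 and within 0.23 of each other, with a fitted ratio of 2.87 ± 0.069, a fold change of 7.31 (adjusted p = 7.44e-15). A second, dimmer probe of Noct was called lower at -0.29, so the probes of this gene disagree. P2ry14, a receptor for UDP-sugars, stood at 2.09, 2.18, 2.13 and 2.28, a fitted 2.17 ± 0.069 (adjusted p = 8.86e-14). Lancl3, of the LanC-like family, stood at 2.27, 2.03, 2.33 and 2.00, a fitted 2.16 ± 0.089 (adjusted p = 2.85e-12). For both genes the arrays of the Cy5 and Cy3 orientations lay on the same side of 0 by a wide margin. The tetraspanin gene Tspan8 stood at 2.23, 2.09, 2.00 and 2.19, a fitted 2.13 ± 0.053 (adjusted p = 7.44e-15), and was bright in both channels on 4 of 4 arrays. Cited2, a partner of the coactivators CBP and p300, stood at 2.02, 1.86, 1.68 and 2.10, a fitted 1.91 ± 0.092 (adjusted p = 2.18e-11).

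Other genes among the 20 highest are described by their known roles. Neurl3, a ubiquitin ligase gene, stood at 2.05, 1.70, 1.94 and 1.93, a fitted 1.91 ± 0.056, and Ube2h, a ubiquitin-conjugating enzyme gene known for its part in red cell maturation, stood at 1.70, 1.80, 1.77 and 1.47, a fitted 1.69 ± 0.068. The ubiquitin ligase gene Fbxo30 rose by 1.54 ± 0.063. The kinase genes Prkx (1.82 ± 0.048) and Tec (1.61 ± 0.050) rose as well. For Tec the Cy3 arrays (1.85 and 1.90) lay above the Cy5 arrays (1.42 and 1.28), with no overlap between orientations and all 4 above 0. Trp53inp1, a p53-induced gene known to promote autophagy and death, rose by 1.68 ± 0.094, and the DNA damage response gene Gadd45a rose by 1.56 ± 0.099 with arrays at 2.02, 1.33, 1.77 and 1.13. Klf6, a zinc-finger transcription factor gene, rose by 1.84 ± 0.084. The remaining members were the caveolin gene Cav2 (1.58), Anxa1, an anti-inflammatory annexin (1.58), Sat1, which acetylates polyamines (1.55), the glutathione transferase gene Mgst2 (1.54), the galectin gene Lgals3 (1.54), the vesicle trafficking gene Sft2d2 (1.65) and the RNA exonuclease gene Rexo5 (1.63). At time 0 the probes of 13 of the 20 were dim on at least 1 array, and those of Klf6, Trp53inp1 and Lgals3 on 4 of 4. The largest adjusted p among the 20 was 1.01e-09, for Gadd45a.

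**Figure D2:**
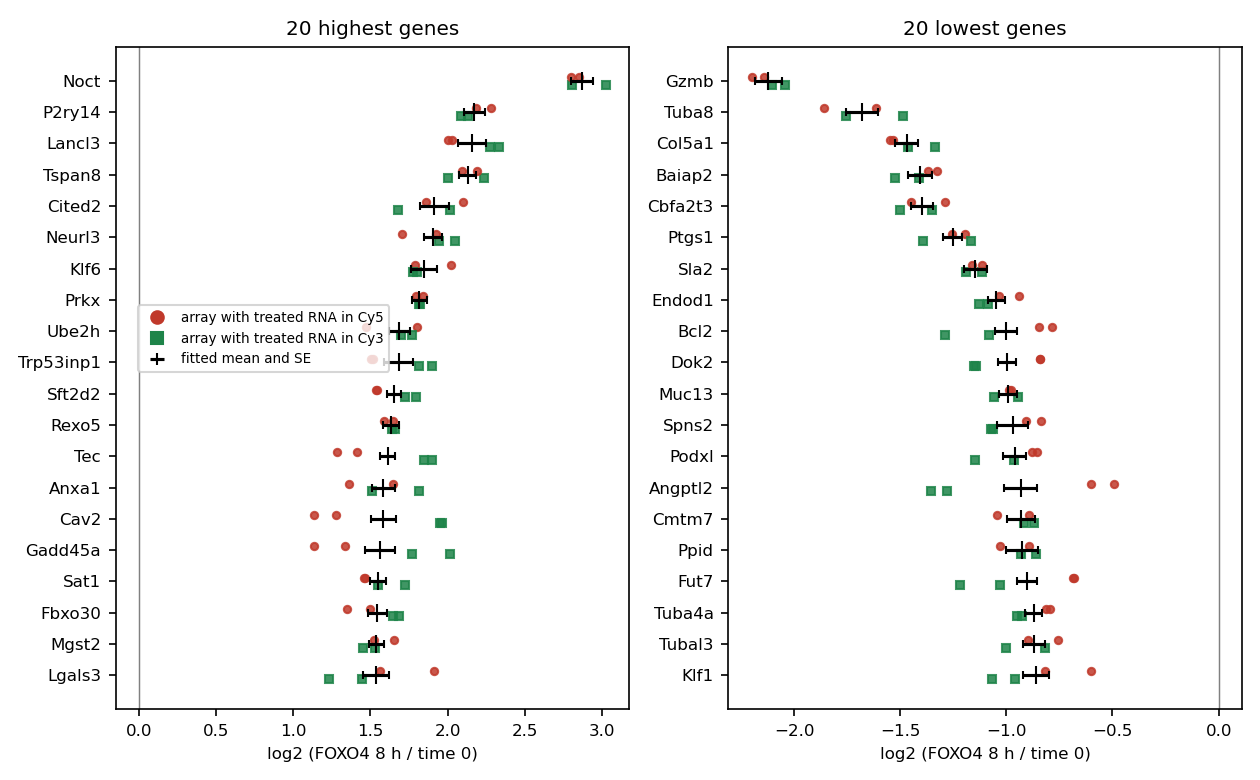
The 20 genes of highest (left) and the 20 of lowest (right) log2 ratio of FOXO4 8 h over time 0 among called genes of 1 sign on 4 arrays. Circles are arrays with the treated RNA in Cy5, squares arrays with it in Cy3, and black marks with bars the fitted mean and its SE (n = 4 arrays). Every point of the 40 genes lies on its gene's side of 0 because the genes were chosen so, and orientations separate for genes such as Tec, Cav2 and Angptl2.

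The genes that fell most included the cytotoxic gene Gzmb, cytoskeletal and adhesion genes and the survival gene Bcl2. Gzmb, which encodes the protease granzyme B, stood at -2.10, -2.20, -2.04 and -2.14 in replicates 1 to 4. The 4 arrays lay within 0.16 of each other, with a fitted ratio of -2.12 ± 0.063, a fold change of 4.35 down (adjusted p = 5.27e-14). Its probe was bright in both channels on 4 of 4 arrays. The tubulin gene Tuba8 stood at -1.49, -1.86, -1.75 and -1.62, a fitted -1.68 ± 0.077 (adjusted p = 1.19e-11), and Tuba4a (-0.87 ± 0.039) and Tubal3 (-0.87 ± 0.052) fell as well. The collagen gene Col5a1 fell by 1.47 on the log2 scale, and of its 6 other probes 1 stood at -1.36 and the rest between -0.21 and 0.08. Baiap2, which links membranes to actin, fell by 1.41, whereas its second probe stood at -0.10. Cbfa2t3, a corepressor gene of blood cell development, stood at -1.50, -1.45, -1.35 and -1.29, a fitted -1.40 ± 0.051. Bcl2, which encodes the mitochondrial guard against cell death, stood at -1.29, -0.85, -1.08 and -0.79, a fitted -1.0 ± 0.052, a fold change of 2 down (adjusted p = 6.79e-11). Both orientations were below 0 for Bcl2, and the Cy3 arrays were the lower.

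The other genes among the 20 lowest were signalling and surface genes. They were Ptgs1, a cyclooxygenase gene (-1.25), the adaptor genes Sla2 (-1.15) and Dok2 (-1.0), which dampen receptor signals, the nuclease gene Endod1 (-1.05), the mucin gene Muc13 (-0.99), Spns2, an exporter of sphingosine 1-phosphate (-0.97), Podxl, a sialomucin gene (-0.96), Cmtm7 (-0.93), Ppid, an HSP90 co-chaperone gene (-0.93), the fucosyltransferase gene Fut7 (-0.90), Angptl2 (-0.93) and the erythroid factor gene Klf1 (-0.86). The largest adjusted p among the 20 was 4.08e-08, for Angptl2, whose arrays stood at -1.36, -0.49, -1.28 and -0.60. Angptl2 was dim in treated cells on 4 of 4 arrays and Klf1 on 3 of 4. The second probe of Podxl stood at 0.05, that of Angptl2 at -0.03 and that of Endod1 at -0.40.

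The FOXO transcripts themselves were not called. Foxo4 stood at 0.01, 0.23, -0.01 and 0.13, a fitted 0.09 ± 0.043 (adjusted p = 0.203), Foxo3 at 0.03 ± 0.045 and Foxo1 at 0.00 ± 0.037. The 3 probes were dim on at least 3 of 4 arrays in both channels, and whether the Foxo4 probe reads the fusion's transcript is not known here.

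A list of 57 FOXO-induced genes was drawn from general knowledge with earlier results of these data known, so its counts are a description. Of the 57, 23 rose, none fell and 34 were not called, beside 9.71% higher and 8.75% lower over all genes. The list's median was 0.03 beside -0.01 over all genes. After centring on the external control spots the list's median was -0.06, and 18 rose and 2 fell. By orientation the median was 0.19 over the Cy5 arrays and 0.26 over the Cy3 arrays, with 38 of the 57 above 0 in the Cy5 orientation, 40 in the Cy3 orientation and 22 in both. Beside Noct, Cited2, Klf6, Trp53inp1 and Gadd45a, the mTORC1 inhibitor gene Sesn1 stood at 1.68, 1.04, 1.53 and 0.92, a fitted 1.29 ± 0.069 (adjusted p = 9.53e-11). The Cy3 arrays of Sesn1 were the higher, and all 4 were above 0. The receptor genes Erbb3 (0.84 ± 0.059) and Igf1r (0.74 ± 0.045) rose, but the other probes of Erbb3 gave 0.20 and 0.09 and the 5 other probes of Igf1r 0.03 to 0.58. The antiproliferative gene Btg1 stood at 0.73, 0.87, 0.64 and 0.89, a fitted 0.78 ± 0.061, and its relative Btg2 rose by 0.36 ± 0.060. Mxi1, an antagonist of MYC, rose by 0.57 ± 0.051. Well-known FOXO targets that were not called included Irs2 (0.07 ± 0.042), Insr (-0.02 ± 0.052), Bcl6 (-0.11 ± 0.041), Sesn3 (-0.09 ± 0.053), the ubiquitin ligase gene Fbxo32 (-0.11 ± 0.063), Cdkn1a (0.01 ± 0.053), Txnip (0.08 ± 0.042) and Rbl2 (0.03 ± 0.044). Insr, Bcl6 and Sesn3 were dim in both channels on 4 of 4 arrays, and Ccng2 was not analysed here.

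The FOXO motif was looked for in promoters, since the genes that rose most share a stimulus. The letters GTAAACA on either strand of the 250 bases before the start site were found for 3 of 18 of the 20 highest genes (16.7%), namely P2ry14, Tspan8 and Ube2h, for none of 16 of the 20 lowest, and for 3.09% of the 13973 tested genes with a promoter sequence. Among all genes that rose the share was 2.79% of 1363, and among all that fell 2.37% of 1267. The related letters CAAAACA were found for 2 of the 18 highest (11.1%) and for 5.08% of all. Of 45 FOXO-induced genes with a promoter sequence 6 (13.3%) held GTAAACA: Btg1, Mxi1 and Bcl2l11 rose, and Txnip, Bbc3 and Trim63 were not called. A match is a description of letters and does not show a bound site. The 2 sequences shown, for called genes with a single start site, are from RefSeq (GRCm38.p6), 5′ to 3′ on the gene's strand, with the match in capitals, at chr10:115817242-115817283 on the plus strand for Tspan8 and chr10:96616773-96616827 on the plus strand for Btg1.
Tspan8: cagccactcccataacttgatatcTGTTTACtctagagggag
Btg1: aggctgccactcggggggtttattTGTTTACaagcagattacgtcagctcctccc
In both the capitals read TGTTTAC, the motif on the opposite strand, which lay 12 to 18 bases before the start of Tspan8 and 198 to 204 before that of Btg1.

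Genes that FOXO factors are known to repress were lower or not called at 8 h, and genes of the IL-3 response were called in both directions. Of 8 FOXO-repressed genes 4 fell and none rose, with a median of -0.15. Id1, which blocks helix-loop-helix factors, stood at -0.88, -0.42, -0.90 and -0.46, a fitted -0.67 ± 0.055 (adjusted p = 3.12e-08), and the cyclin gene Ccnd2 stood at -0.51, -0.44, -0.70 and -0.22, a fitted -0.47 ± 0.059 (adjusted p = 9.09e-06). Both were below 0 on 4 of 4 arrays. Id2 (-0.44 ± 0.053) and the kinase gene Pim1 (-0.24 ± 0.071, adjusted p = 0.02) fell as well, and the call of Pim1 was lost without replicate 2, 3 or 4. Myc stood at -0.05, 0.14, -0.11 and 0.16, a fitted 0.03 ± 0.047 (adjusted p = 0.795), with 2 arrays on each side of 0. Of 40 genes of the IL-3 and STAT5 response 7 rose and 9 fell, a balance that turned to 6 and 5 without the dye term. Those that rose included the MAP kinase phosphatase genes Dusp6 (0.99 ± 0.054) and Dusp5 (0.75 ± 0.054), the kinase gene Jak2 (0.90 ± 0.057) and the feedback inhibitor gene Socs2 (0.61 ± 0.063). Those that fell included Id1, Pim1 and the transcription factor gene Ets2 (-0.61 ± 0.042).

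Genes of cell death and of the PI3K pathway were called in both directions, beside 9.71% higher and 8.75% lower over all genes. Of 31 genes of the BCL2 family and cell death 9 rose and 5 fell, and 4 and 3 after centring on the external control spots or without the dye term. Bcl2l11, which encodes the death-promoting protein BIM, stood at 0.51, 0.53, 0.25 and 0.34, a fitted 0.41 ± 0.062 (adjusted p = 7.01e-05), with all 4 arrays above 0. Its second probe gave 0.12, and at time 0 it was dim on 4 of 4 arrays. The death receptor gene Fas rose by 0.39 ± 0.064, the mitophagy gene Bnip3 by 0.76 ± 0.086 and the inhibitor gene Birc3 by 0.48 ± 0.057, whereas Bcl2, Bid (-0.43 ± 0.040) and Casp2 (-0.25 ± 0.046) fell. Of 46 regulators of PI3K, AKT and mTORC1 8 rose and 2 fell, a share called near the 18.5% over all genes. Of the 46, 27 were bright, and 38.1% of the genes that passed the filter at the control spots were called. With centring on the external control spots 4 rose and 4 fell. Pik3ca, a catalytic subunit of PI3K, stood at 0.91, 0.82, 0.88 and 0.87, a fitted 0.87 ± 0.062 (adjusted p = 4.34e-09). Pik3ip1, which inhibits PI3K, stood at 0.46, 0.45, 0.51 and 0.49, a fitted 0.48 ± 0.053 (adjusted p = 1.73e-06), and was dim in both channels on 4 of 4 arrays. Of 29 p53 targets 7 rose, or 4 with centring on the external control spots or without the dye term, with Sesn1, Trp53inp1 and Gadd45a in the lead, and 2 fell, Phlda3 (-0.49 ± 0.054) and Aen (-0.36 ± 0.042).

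Among genes of glutamine and glutamate metabolism 12 of 30 fell, 4 rose and 14 were not called, with a median of -0.10. The median was -0.03 over the Cy5 arrays and -0.15 over the Cy3 arrays, and with median centring or without the dye term 5 fell and 3 rose. Glul, which encodes glutamine synthetase, stood at 0.33, 0.50, 0.33 and 0.39, a fitted 0.38 ± 0.050, a fold change of 1.3 (adjusted p = 1.1e-05). All 4 arrays were above 0, and the second, dimmer probe of Glul stood at 0.04 and was not called. The other genes that rose were Ctps2, a CTP synthase gene (0.28 ± 0.047), and the hexosamine pathway genes Gfpt1 (0.29 ± 0.056) and Gfpt2 (0.16 ± 0.043). Genes that fell included those of proline breakdown, Prodh (-0.39 ± 0.034), of transamination, Got1 (-0.23 ± 0.038), of glutathione synthesis, Gclc (-0.19 ± 0.042) and Gclm (-0.23 ± 0.064), of nucleotide synthesis, Ppat (-0.22 ± 0.069), Cad (-0.28 ± 0.079) and Ctps (-0.29 ± 0.058), and of amino acid transport, Slc7a5 (-0.29 ± 0.053). The glutamine transporter gene Slc1a5 stood at -0.61, -0.01, -0.38 and -0.10, a fitted -0.28 ± 0.057 (adjusted p = 0.00134), with the 2 Cy5 arrays close to 0 and its call lost without the dye term. The transporter gene Slc38a2 (-0.09 ± 0.040) and the asparagine synthetase gene Asns (-0.13 ± 0.054) were not called.

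Autophagy genes rose widely. Of 44, 24 rose, 1 fell and 19 were not called, against 9.71% and 8.75% over all genes, and the median was 0.17 (0.20 over the Cy5 arrays and 0.14 over the Cy3 arrays). With centring on the external control spots 10 rose and 1 fell, and without the dye term 14 and 1. Sqstm1, the cargo receptor gene known as p62, stood at 0.78, 1.08, 0.82 and 0.92, a fitted 0.90 ± 0.062, a fold change of 1.87 (adjusted p = 2.95e-09). Map1lc3b, whose product coats autophagosomes, stood at 0.96, 0.57, 0.84 and 0.79, a fitted 0.79 ± 0.053 (adjusted p = 2.27e-09), and its other probes gave 0.83 and 0.49. Both genes were above 0 on 4 of 4 arrays, and the orientations did not overlap: the Cy5 arrays were the higher for Sqstm1 and the Cy3 arrays for Map1lc3b. Of the same coat family Gabarapl2 (0.52 ± 0.044), Gabarapl1 (0.32 ± 0.043) and Gabarap (0.16 ± 0.045) rose as well, and Map1lc3a was at -0.03 ± 0.052 and not called. The mitophagy receptor genes Bnip3 (0.73, 0.92, 0.50 and 0.90 by array, a fitted 0.76 ± 0.086) and Fundc1 (0.70 ± 0.047) rose, and Bnip3l (-0.01 ± 0.046) was not called. Genes of the initiating complex rose by less: Rb1cc1 (0.35 ± 0.053), Ulk2 (0.29 ± 0.053), Atg13 (0.26 ± 0.057) and Atg101 (0.18 ± 0.047). Ulk1 stood at -0.20, 0.75, -0.28 and 0.72, a fitted 0.25 ± 0.050 (adjusted p = 0.0011), with the orientations on opposite sides of 0 and a call lost without the dye term, and it was dim in both channels on 4 of 4 arrays. The lipid kinase genes Pik3c3 (0.18 ± 0.052) and Becn1 (0.23 ± 0.049) rose, whereas their partner gene Uvrag fell by 0.19.

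Lysosome genes rose more often than they fell, and many that rose were subunits of the proton pump, which has many members in the list. Of 42, 17 rose, 1 fell and 24 were not called, with a median of 0.10 (0.18 over the Cy5 arrays and 0.11 over the Cy3 arrays). With centring on the external control spots 6 rose and 2 fell, and without the dye term 9 and 1. Subunit genes of the pump, which acidifies the lysosome, made up 10 of the 17: Atp6v1d stood at 0.93, 0.59, 0.82 and 0.54, a fitted 0.72 ± 0.048 (adjusted p = 1.74e-09), Atp6v1e1 rose by 0.39 ± 0.034 and Atp6v1b2 by 0.39 ± 0.042. The membrane protein genes Lamp2 (0.57 ± 0.068) and Scarb2 (0.42 ± 0.041) and the protease gene Ctsc (0.55 ± 0.056) rose too. Lamp1 (0.02 ± 0.046), Ctsd (-0.02 ± 0.050) and the master regulator gene Tfeb (0.02 ± 0.059) were not called, and the hydrolase gene Gusb fell by 0.43.

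The letters CACGTG, the core of the E-box that TFEB and its relatives bind at lysosome genes, were found in the 250 bases before the start of 12 of 35 lysosome genes (34.3%), beside 8.30% of all tested genes. Of the 12 genes with the letters 2 rose, with a median of 0.05, and of the 23 without them 11 rose and 1 fell, with a median of 0.17. The 2 were the calcium channel gene Mcoln1 (0.27 ± 0.063) and the pump gene Atp6v0b (0.21 ± 0.051), whose sequences are shown (RefSeq, GRCm38.p6, gene strand, E-box in capitals), at chr8:3500450-3500503 on the plus strand and chr4:117887330-117887371 on the minus strand.
Mcoln1: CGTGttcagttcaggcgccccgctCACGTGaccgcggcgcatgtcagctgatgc
Atp6v0b: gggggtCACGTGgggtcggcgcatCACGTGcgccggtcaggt
Each had 2 matches within the 250 bases, and the capitals at the left end of the Mcoln1 sequence are the last bases of its second match.

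Genes of the endoplasmic reticulum (ER) and the unfolded protein response rose as well. Of 32, 18 rose, 1 fell and 13 were not called, with a median of 0.17 (0.16 over the Cy5 arrays and 0.14 over the Cy3 arrays), and 6 rose and 1 fell when centred on the external control spots, and 5 and 1 without the dye term. Ero1b, an oxidase gene of disulphide formation, stood at 0.86, 0.97, 0.89 and 0.91, a fitted 0.91 ± 0.045 (adjusted p = 3.06e-11), and Xbp1, the transcription factor of the response, stood at 0.91, 0.89, 0.98 and 0.78, a fitted 0.89 ± 0.057 (adjusted p = 1.04e-09). All 4 arrays of both genes were above 0.7. Genes of the disposal of misfolded proteins rose: Dnajb9 (0.47 ± 0.063), Derl2 (0.36 ± 0.049), Sel1l (0.29 ± 0.052), Edem1 (0.26 ± 0.039) and Edem3 (0.20 ± 0.060). The sensor genes Ern1 (0.27 ± 0.046) and Atf6 (0.24 ± 0.060) and the oxidoreductase gene Pdia4 (0.42 ± 0.042) rose as well. The most abundant chaperones moved less: Hspa5 (0.16 ± 0.059) and Hsp90b1 (0.16 ± 0.058) were not called, Canx rose by 0.16 ± 0.051 and Calr stood at -0.45, -0.35, -0.44 and -0.38, a fitted -0.41 ± 0.079 (adjusted p = 0.0008). Of 27 ATF4 targets, another arm of the same response, 1 rose (Ppp1r15a, 0.25 ± 0.064) and 1 fell (Slc7a5).

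The ER stress element, CCAAT and CCACG with 9 bases between them on either strand, was found in 10 of 27 promoters of the ER list (37.0%) beside 0.136% of all tested genes. Those 10 comprised 2 that rose, 1 that fell and 7 not called, and of the 17 without it 12 rose and 5 were not called, with medians of 0.12 and 0.20. The sequences of the 3 called genes are shown for that reason (RefSeq, GRCm38.p6, gene strand, both parts of the element in capitals), at chr13:12565658-12565724 on the plus strand for Ero1b, chr11:50325776-50325842 on the minus strand for Canx and chr8:84847051-84847117 on the minus strand for Calr.
Ero1b: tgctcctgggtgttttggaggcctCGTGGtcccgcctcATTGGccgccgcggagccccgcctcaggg
Canx: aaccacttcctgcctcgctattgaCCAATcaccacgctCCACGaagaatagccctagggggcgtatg
Calr: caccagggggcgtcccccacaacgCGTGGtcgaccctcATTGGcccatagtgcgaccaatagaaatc
The element reads on the gene's strand in Canx and on the opposite strand in the other two, and the genes with it span 0.91 for Ero1b and -0.41 for Calr.

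Other genes of protein turnover divided by kind. Of 51 genes of ubiquitin ligases and conjugating enzymes 19 rose and 3 fell, with a median of 0.11. Beside Ube2h and Fbxo30, Rnf125 (0.97 ± 0.067), Rnf19b (0.95 ± 0.057), Ube2j1, which serves the disposal of ER proteins (0.72 ± 0.042), Ube2b (0.61 ± 0.079) and the deubiquitinase gene Zranb1 (0.60 ± 0.047) rose, and Nedd4 (-0.37 ± 0.043), Ube2t (-0.35 ± 0.043) and Trim32 (-0.24 ± 0.052) fell. Trim32 stood at 0.26, -0.80, 0.28 and -0.72, with the orientations on opposite sides of 0. Of 46 proteasome genes 5 rose and 14 fell, with a median of -0.02, but 6 rose and 8 fell with median centring, which turned the median to 0.04, and 1 rose and 7 fell without the dye term. The immunoproteasome genes Psmb8 (-0.42 ± 0.051), Psmb9 (-0.35 ± 0.045) and Psmb10 (-0.44 ± 0.036) were among those that fell, and the activator gene Psme4 rose by 0.55 ± 0.073. Of 25 heat shock factor targets 2 rose, Dnajb4 (0.82 ± 0.072) and Hspa4l (0.32 ± 0.041), and 5 fell, among them Ppid, Hsp90aa1 (-0.28 ± 0.039) and its activator gene Ahsa1 (-0.34 ± 0.037).

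Genes of DNA replication and S phase had the largest share of falls among the lists described. Of 45, 32 fell, none rose and 13 were not called, with a median of -0.24 (-0.19 over the Cy5 arrays and -0.30 over the Cy3 arrays), and 21 fell with median centring and 20 without the dye term, with no rise in either. Tk1, a thymidine kinase gene, stood at -0.85, -0.54, -0.80 and -0.48, a fitted -0.67 ± 0.047 (adjusted p = 3.48e-09), and the polymerase gene Pold1 stood at -0.66, -0.70, -0.68 and -0.65, a fitted -0.67 ± 0.059 (adjusted p = 7.8e-08). All 4 arrays of each were below -0.4. Uhrf1, which maintains DNA methylation (-0.54 ± 0.042), the licensing gene Cdt1 (-0.46 ± 0.039), the clamp loader genes Rfc4 (-0.42 ± 0.060) and Rfc5 (-0.39 ± 0.041) and the helicase genes Mcm5 (-0.37 ± 0.056) and Mcm7 (-0.37 ± 0.041) fell too. Among those not called were Pcna (-0.15 ± 0.053), Rrm1 (-0.06 ± 0.037), Tyms (-0.05 ± 0.041) and Mcm6 (0.07 ± 0.055). The probes of 42 of the 45 were bright in both channels on 4 of 4 arrays. Of 25 genes of G1 control 4 rose and 6 fell, and 4 and 4 with median centring: Rb1 (0.60 ± 0.067) and the inhibitor gene Cdkn1b (0.26 ± 0.057, adjusted p = 0.00217) rose, and Ccnd2, Rbl1 (-0.36 ± 0.045) and Ccne1 (-0.21 ± 0.049) fell. Cdkn1b, a known FOXO target that encodes p27, stood at 0.32, 0.26, 0.08 and 0.38, was dim in both channels on 4 of 4 arrays, and lost its call without the dye term and after centring on the external control spots. Of 41 genes of mitosis 10 rose and 7 fell, a balance that turned to 3 and 6 after centring on the external control spots. Ccnb2 (0.42 ± 0.042) and Ndc80 (0.39 ± 0.047) rose, and Top2a (-0.38 ± 0.044) and Aurkb (-0.34 ± 0.053) fell.

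E2F factors drive many S-phase genes, and their letters TTTGGCGC or TTTCGCGC were found on either strand in 7 of 39 promoters of the S-phase list (17.9%), beside 1.18% of all tested genes. Of the 7 genes 4 fell (median -0.29), and of the 32 without the letters 24 fell (median -0.25). Promoters of 2 called genes with a single start site, Rfc3 (-0.34 ± 0.039) and Mcm5, are shown to let the letters be seen (RefSeq, GRCm38.p6, gene strand, matches in capitals), at chr5:151651209-151651242 on the minus strand and chr8:75109336-75109391 on the plus strand.
Rfc3: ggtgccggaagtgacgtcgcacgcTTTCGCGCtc
Mcm5: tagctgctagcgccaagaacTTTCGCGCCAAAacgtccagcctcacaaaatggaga
The match of Rfc3 lay 3 to 10 bases before the start, and the run of capitals in Mcm5 holds 2 overlapping matches, 1 on each strand.

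Genes of ribosome biogenesis were called lower more often than higher. Of 60 ribosome biogenesis genes 30 fell and 1 rose, with a median of -0.17 (-0.13 over the Cy5 arrays and -0.24 over the Cy3 arrays), and 17 fell and none rose without the dye term. Wdr12, of a complex that matures the large subunit, stood at -0.41, -0.57, -0.52 and -0.44, a fitted -0.48 ± 0.042 (adjusted p = 6.99e-08). All 4 arrays of Wdr12 were below -0.4, whereas Nop56, a core protein of small nucleolar particles, stood at -0.83, -0.20, -0.68 and -0.27, a fitted -0.50 ± 0.049, with the Cy3 arrays the lower. The helicase gene Ddx21 (-0.52 ± 0.052), Tsr1 (-0.35 ± 0.036), Utp20 (-0.33 ± 0.045) and Polr1d, a subunit of RNA polymerases that make ribosomal RNA (-0.32 ± 0.044), fell, and Pes1 rose by 0.16 ± 0.043, though its other probe stood at -0.20 and was not called. Of 71 mitochondrial ribosomal protein genes 29 fell and 6 rose (median -0.12), among them Mrpl12 (-0.43 ± 0.046), Mrps35 (-0.38 ± 0.041) and Mrpl17 (-0.42 ± 0.046), with 13 falls and 7 rises under median centring and 11 falls and no rise without the dye term. Of 60 cytosolic ribosomal protein genes 5 fell, near the 8.75% over all genes, and none rose (median -0.05), and 1 fell with median centring or without the dye term. But 59 of the 60 were bright, and their share of falls was below that of genes passing the filter at the control spots (1609 of 8618). Rpl22 stood at -0.57, -0.54, -0.59 and -0.53, a fitted -0.56 ± 0.038 (adjusted p = 3e-09), apart from the other 4 that fell, which lay between -0.19 (Rpl14) and -0.15 (Rps26). Of 47 translation factor genes 11 fell and 3 rose, and 5 fell and none rose without the dye term. Eif4e, which binds the cap of messenger RNA (-0.52 ± 0.075), Eif2s2 (-0.50 ± 0.045) and Eef2k, the kinase gene that holds elongation back (-0.53 ± 0.048), fell. Of 18 cytosolic aminoacyl-tRNA synthetase genes 8 fell and none rose (median -0.16; 5 fell with median centring), among them Tars (-0.37 ± 0.045) and Eprs (-0.30 ± 0.037).

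Genes of nucleotide synthesis were called lower more often than higher. Of 30 genes of purine and pyrimidine synthesis 14 fell and 1 rose (median -0.11), but 8 fell with median centring and 7 without the dye term, beside 1 that rose in each. Shmt1, which feeds folate carbon units (-0.48 ± 0.048), Adsl (-0.41 ± 0.057), Rrm2 (-0.36 ± 0.043) and Gart (-0.33 ± 0.050) fell. Of 29 genes of sterol and fatty acid synthesis 8 fell and 3 rose. The fatty acid genes Fasn (-0.49 ± 0.084), Acaca (-0.22 ± 0.042), Acacb (-0.35 ± 0.061) and Scd2 (-0.24 ± 0.038) fell, but the 10 other probes of Acaca stood between -0.10 and 0.04 and that of Acacb at -0.03, none of them called. In contrast, the sterol genes Cyp51 (0.50 ± 0.044), Insig1 (0.22 ± 0.044) and Srebf2 (0.24 ± 0.067) rose and Idi1 (-0.31 ± 0.040) fell. Of 27 genes of glucose uptake and glycolysis 5 fell, among them Eno3 (-0.55 ± 0.042) and the transporter gene Slc2a3 (-0.32 ± 0.050), and Pfkp (0.24 ± 0.052) rose, and 3 fell with median centring or without the dye term. Of 28 genes of the TCA cycle 3 rose and 3 fell, and of 65 genes of the respiratory chain 4 rose and 6 fell, balances that turned to 4 and 0 in each list with median centring. These shares were close to the 18.5% called over all genes. They were below the 38.1% called among genes that passed the filter at the control spots. Of the 28 genes 25 were bright, and of the 65 genes 64. Of 28 antioxidant genes 6 rose and 2 fell. Glrx, which reduces glutathionylated proteins (0.97 ± 0.056), and the FOXO targets Sod2 (0.61, 0.77, 0.66 and 0.65 by array, a fitted 0.67 ± 0.047) and Cat (0.49, 0.59, 0.57 and 0.55 by array, a fitted 0.55 ± 0.042) rose on 4 of 4 arrays, and the 2 that fell were Gclc and Gclm.

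The remaining lists held single genes of large change more than shared shifts. Of 60 splicing genes 8 rose and 15 fell, a balance that turned to 9 and 7 with median centring, and stood at 4 and 8 without the dye term. Ptbp3 (1.28 ± 0.048) and the kinase gene Clk1 (1.03 ± 0.071) rose, and the SR protein genes Srsf6 (-0.66 ± 0.050) and Srsf5 (-0.39 ± 0.056) fell. Of 32 genes of the cytoskeleton 8 rose and 9 fell, and of 54 chromatin modifier genes 8 rose and 9 fell, balances that turned to 8 and 6 and to 10 and 5 with median centring. Actg1 (0.67 ± 0.048), Vim (0.56 ± 0.046) and the acetyltransferase gene Kat2b (0.76 ± 0.050) rose. Of 20 clock genes 3 rose (Noct, Clock and Csnk1e) and 2 fell (Arntl, -0.28 ± 0.062, and Bhlhe40, -0.23 ± 0.053), a balance of 2 and 2 after centring on the external control spots. Of 25 interferon genes 2 rose and 2 fell. Of 15 oestrogen receptor targets, checked because 4-OHT binds that receptor, Xbp1 rose and Igfbp4 (-0.44 ± 0.111) fell. Of the marker lists, 1 of 18 B-lineage genes fell (Tcf3, -0.18 ± 0.048) and none rose. No B-lineage gene was called with median centring or without the dye term. The other probes of Tcf3 stood at -0.07 and -0.11 and were not called. Of 23 mast cell, basophil and myeloid genes Gata2 (-0.69 ± 0.051) and Prtn3 fell and Spi1 (0.30 ± 0.065) rose, and 4 of the 23 were bright in either channel. Of 20 T, NK and erythroid genes Gzmb, Klf1 and Gata1 (-0.48 ± 0.042) fell and Tfrc, the transferrin receptor gene (0.43 ± 0.049), and Hba-a1 (0.34 ± 0.057) rose, and 7 were bright. The summed background-corrected signal of the T, NK and erythroid genes was 5778 to 7508 on the treated side and 10907 to 13136 on the time 0 side, without overlap, with Gzmb the brightest of those that fell. That of the mast cell, basophil and myeloid genes was 28025 to 41515 on the treated side and 28072 to 45610 on the time 0 side. Most of the mast cell, basophil and myeloid sum came from Cpa3 alone, so it does not read the list as a whole. For the B-lineage genes the sum was 2728 to 3285 on the treated side and 2764 to 3382 on the time 0 side. All these sums include the offset of 50 for each gene, and only 2 of the 18 B-lineage genes were bright. The B-lineage sum therefore cannot show whether its dim genes changed. The part of cell make-up in the results was not tested.

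Probes of a gene also disagreed for other called genes named above. Another probe stood near 0 for Clock (0.02), Socs2 (0.02), Nedd4 (-0.02), Utp20 (-0.02), Psmb9 (-0.01), Mcoln1 (-0.01), Pik3c3 (0.02) and Eprs (-0.06), as did both other probes of Gart (at most 0.01 in size) and 1 of the 2 of Gusb. For Rexo5, Rnf125 and Aen another probe had the same sign at a smaller size (0.32, 0.25 and -0.17). Of the 4 other probes of Cad 1 was called in the opposite direction, at 0.28, and the rest stood between -0.09 and 0.01.

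**Figure D3:**
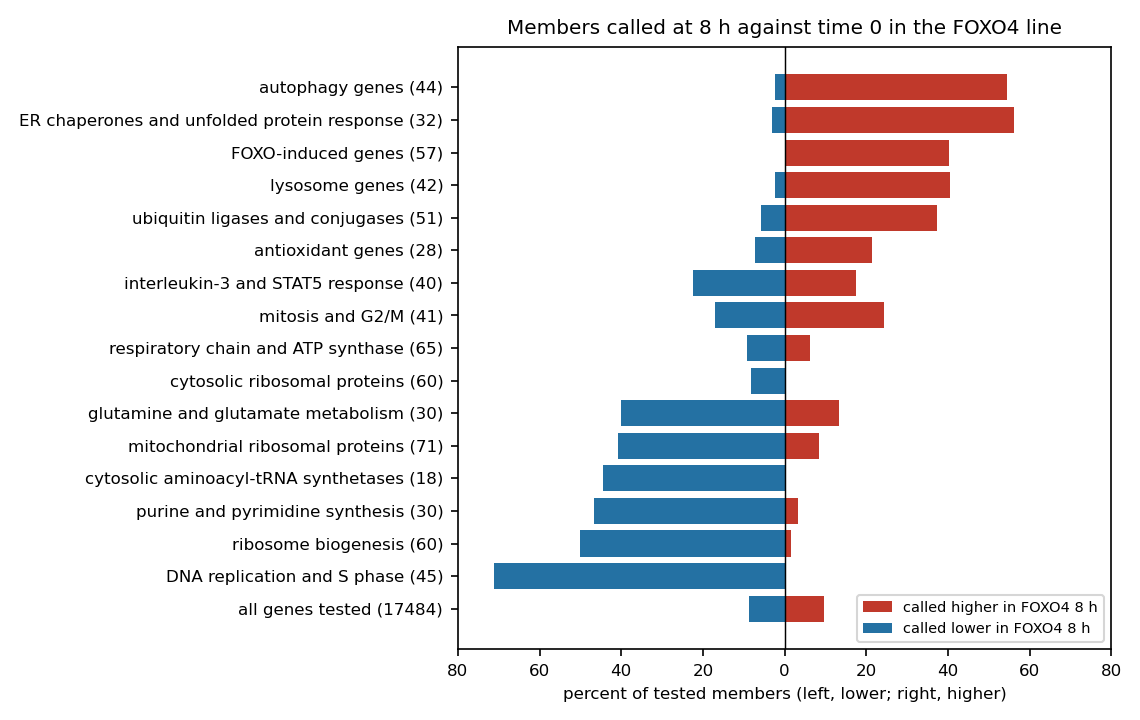
Percent of the tested members of 16 gene lists (number tested in brackets) called higher (right, red) or lower (left, blue) in FOXO4 8 h over time 0, with all 17484 genes in the bottom row. The lists of autophagy and ER genes reach furthest to the right, with 24 of 44 and 18 of 32 members higher, and that of DNA replication and S phase furthest to the left, with 32 of 45 lower.

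Set against the same line at 2 h, FOXO4 cells at 8 h differed in 1869 genes (10.7%), of which 1179 (6.74%) were higher and 690 (3.95%) lower at 8 h. The comparison asks which part of the response came later, and both times were measured against the same pool. Of the calls 63.1% were higher at 8 h, and 76.0% with arrays centred on the external control spots, where 718 genes were called, and 79.6% with median centring. Some genes stood near their time 0 level at 2 h and high at 8 h. Anxa1 stood at 1.82, 1.36, 1.51 and 1.64 at 8 h and 0.12, -0.10, 0.16 and 0.08 at 2 h, without overlap, a difference of 1.52 ± 0.108 (adjusted p = 2.8e-08). Ube2h was at 1.69 at 8 h and 0.12 at 2 h, a difference of 1.57 ± 0.096, and Mgst2 at 1.54 at 8 h and 0.13 at 2 h, a difference of 1.41 ± 0.069. Neurl3 (1.64 ± 0.079), Pdlim5, a gene of actin-bound scaffolds (1.37 ± 0.077), Ugp2, which makes UDP-glucose (1.30 ± 0.079), and the secreted protein gene Spp1 (1.38 ± 0.120) also differed by over 1. Probes disagreed for Pdlim5, whose others gave 0.83, 0.61 and -0.01 at 8 h, and for Ugp2, whose others gave 0.59 and 0.09. The mirror image was a late fall: Gzmb stood at -2.10, -2.20, -2.04 and -2.14 at 8 h and -0.01, -0.44, -0.04 and -0.49 at 2 h, without overlap, a difference of -1.88 ± 0.089 (adjusted p = 5.5e-10). Tuba8 (-1.36 ± 0.109), Baiap2 (-1.35 ± 0.079), Ptgs1 (-0.97 ± 0.062), Cmtm7 (-0.97 ± 0.093), Col5a1 (-0.89 ± 0.076) and the sialyltransferase gene St6gal1 (-1.04 ± 0.098) were lower at 8 h than at 2 h as well.

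Other genes were high at both times. Noct stood at 2.87 at 8 h and 1.43 at 2 h, a difference of 1.44 ± 0.098, and Tspan8 (1.34 ± 0.075) and Lancl3 (1.32 ± 0.126) were likewise higher at 8 h. For Klf6 (0.41 ± 0.118, adjusted p = 0.0301) and Cited2 (0.48 ± 0.130, adjusted p = 0.0215) the difference was smaller. For Fbxo30 the difference was 0.05 ± 0.089 (adjusted p = 0.913), with 1.54 at 8 h and 1.49 at 2 h, and for Rnf125 it was -0.02 ± 0.095 (adjusted p = 0.972), so neither passed the test. Rnf19b (0.95 at 8 h, 1.39 at 2 h, a difference of -0.44 ± 0.080) and Zranb1 (0.60 at 8 h, 0.98 at 2 h, a difference of -0.37 ± 0.067) were lower at 8 h than at 2 h and still above time 0.

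Against time 0, 1538 genes (8.8%) had been called in this line at 2 h, 592 higher (3.39%) and 946 lower (5.41%), and some that fell at 2 h stood closer to time 0 at 8 h. Id1 was at -0.67 at 8 h and -1.59 at 2 h, a difference of 0.93 ± 0.077 (adjusted p = 2.01e-07), Pim1 at -0.24 at 8 h and -0.94 at 2 h (0.70 ± 0.100) and Gata2, a factor gene of blood stem cells and mast cells, at -0.69 at 8 h and -1.06 at 2 h (0.37 ± 0.072). Myc stood at -0.05, 0.14, -0.11 and 0.16 at 8 h and -0.93, -0.48, -0.83 and -0.41 at 2 h, without overlap, a difference of 0.70 ± 0.066 (adjusted p = 8.4e-07). Of the 40 IL-3 and STAT5 genes 13 were higher and 1 lower at 8 h than at 2 h, whereas 12 had fallen and 2 risen at 2 h against time 0. Some genes changed sign between the times. The SR protein genes Srsf6 (-0.66 at 8 h, 0.47 at 2 h, a difference of -1.13 ± 0.071) and Srsf5 (-0.39 at 8 h, 0.59 at 2 h, a difference of -0.98 ± 0.079) and the RNA-binding gene Hnrnpdl (-0.25 at 8 h, 0.79 at 2 h, a difference of -1.04 ± 0.073) were called higher at 2 h and lower at 8 h against time 0. Xbp1 (0.89 at 8 h, -0.24 at 2 h, a difference of 1.13 ± 0.080), Tfrc (0.43 at 8 h, -0.61 at 2 h, a difference of 1.04 ± 0.069) and Dusp5 (0.75 at 8 h, -0.26 at 2 h, a difference of 1.01 ± 0.077) were called lower at 2 h and higher at 8 h. Of 60 splicing genes 3 were higher and 13 lower at 8 h than at 2 h.

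**Figure D4:**
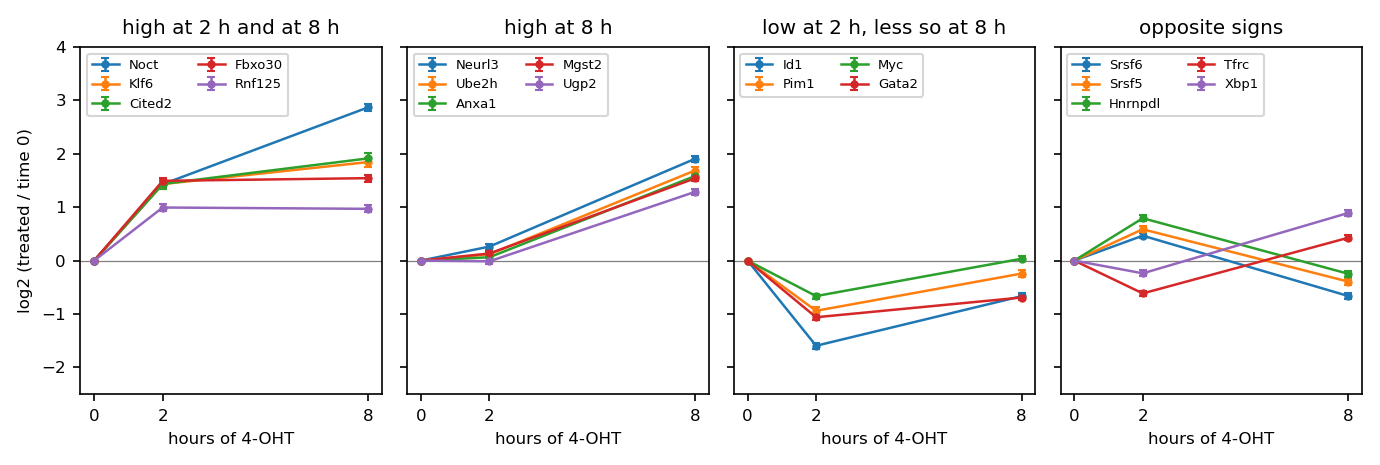
Fitted log2 ratio to time 0 (vertical axis, with SE, n = 4 arrays per time) of 19 genes of the FOXO4 line at 0, 2 and 8 h of 4-OHT (horizontal axis), in 4 panels grouped by their course after the values were seen. Time 0 is 0 by definition and has no error bar. Anxa1, Ube2h, Mgst2, Neurl3 and Ugp2 stand at 1.29 to 1.91 at 8 h and at -0.01 to 0.26 at 2 h, and Id1 and Myc are lower at 2 h than at 8 h.

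Autophagy, ER, lysosome, S-phase and ribosome biogenesis genes also differed between 8 h and 2 h. Of 44 autophagy genes 13 were higher and none lower at 8 h than at 2 h, with Map1lc3b at 0.78 ± 0.075 and Sqstm1 at 0.60 ± 0.088. Of 32 ER genes 15 were higher and none lower, with Xbp1, Dnajb9 (0.66 ± 0.089) and Ero1b (0.65 ± 0.063) in the lead, and at 2 h against time 0 that list had 1 gene higher and 7 lower. Of 42 lysosome genes 13 were higher and 1 lower. Of 57 FOXO-induced genes 20 were higher and none lower. Of 45 S-phase genes 21 were lower and none higher, with Tk1 at -0.73 ± 0.066 and Cdt1 at -0.50 ± 0.055, and of 60 ribosome biogenesis genes 19 were lower and none higher. Glul differed by 0.39 ± 0.070 (adjusted p = 0.000822), with arrays at 0.33, 0.50, 0.33 and 0.39 at 8 h and -0.07, -0.12, 0.04 and 0.12 at 2 h.

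Set against the FOXO3 line at 8 h, the FOXO4 line showed largely the same genes with smaller changes. The comparison asks how the responses to the 2 factors differ, and since the lines have separate pools and clones, a difference holds both pools' errors, and factor, clone and the level of the fusion cannot be told apart. Across 17484 genes, which are not independent replicates, the ratios of the lines correlated at Pearson's r = 0.87 and Spearman's rho = 0.68, as a description. The SD over genes was 0.187 in the FOXO4 line and 0.294 in the FOXO3 line. Of the 3227 FOXO4 calls 89.4% were also called in the FOXO3 line in the same direction, which is 54.2% of the 5329 FOXO3 calls (30.5% of the genes tested). The difference between the lines was called for 1862 genes (10.6%), 923 with a higher value in the FOXO4 line (5.28%) and 939 with a lower one (5.37%). In 1764 of the 1862 the size of the ratio was smaller in the FOXO4 line, and in 98 it was larger. Of these calls 49.6% were higher in the FOXO4 line, or 37.0% after centring on the external control spots and 63.1% with median centring. Scaling the arrays to a common spread left 1192 calls, and without the dye term 557 were left.

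Genes that rose less in the FOXO4 line led the list. Ypel3, a growth-arrest gene, stood at 0.69, 0.81, 0.56 and 0.85 in the FOXO4 line and 1.99, 2.02, 2.16 and 2.25 in the FOXO3 line, without overlap, a difference of -1.38 ± 0.060 (adjusted p = 1.3e-10). The haemoglobin genes Hba-a1 (0.34 in the FOXO4 line, 1.75 in the FOXO3 line, a difference of -1.42 ± 0.081) and Hba-a2 (-1.43 ± 0.080) differed most, and near-identical copies such as these may share signal. Erbb3 (-1.30 ± 0.084), Ccpg1 (-1.25 ± 0.079), Vwa5a (-1.22 ± 0.054), Lgals3 (-1.18 ± 0.117), the methyltransferase gene Etfbkmt (-1.17 ± 0.082), Ypel5 (-1.15 ± 0.069) and Trp53inp1 (-1.14 ± 0.134) differed by over 1. The second probe gave -0.02 for Ccpg1 and -0.07 for Etfbkmt at 8 h in the FOXO4 line. Among FOXO targets, Btg1 stood at 0.78 in the FOXO4 line and 1.87 in the FOXO3 line (-1.09 ± 0.086), and Pik3ip1 at 0.48 in the FOXO4 line and 1.37 in the FOXO3 line (-0.89 ± 0.075). Sesn1 stood at 1.29 in the FOXO4 line and 1.80 in the FOXO3 line (-0.51 ± 0.097), and Bcl2l11 at 0.41 in the FOXO4 line and 0.91 in the FOXO3 line (-0.50 ± 0.088). The call of the Sesn1 difference was lost under at least 1 alternative processing. The difference of Noct was -0.73 ± 0.098, and it was not called with scaling between arrays. That of Cited2 (-0.46 ± 0.130, adjusted p = 0.0264) was lost without replicate 2, 3 or 4 of the FOXO4 line or replicate 3 or 4 of the FOXO3 line. Foxo3 itself differed by -0.66 ± 0.063, at 0.03 in the FOXO4 line and 0.69 in the FOXO3 line.

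Glutamine synthetase and most called autophagy genes were likewise lower in the FOXO4 line, and the wider glutamine list fell less there. Of 30 genes of glutamine and glutamate metabolism 13 were higher and 2 lower in the FOXO4 line, with a median difference of 0.17. Against time 0, 12 of the 30 fell and 4 rose in the FOXO4 line (median -0.10). In the FOXO3 line 17 fell and 5 rose (median -0.35). Glul stood at 0.33, 0.50, 0.33 and 0.39 in the FOXO4 line and 1.30, 1.30, 1.10 and 1.25 in the FOXO3 line, without overlap, a difference of -0.85 ± 0.070 (adjusted p = 3.4e-07). Map1lc3b stood at 0.79 in the FOXO4 line and 1.65 in the FOXO3 line (-0.86 ± 0.075), Sqstm1 at 0.90 in the FOXO4 line and 1.88 in the FOXO3 line (-0.97 ± 0.088), and Gabarapl1 at 0.32 in the FOXO4 line and 0.71 in the FOXO3 line (-0.40 ± 0.061). Bnip3 went the other way, at 0.73, 0.92, 0.50 and 0.90 in the FOXO4 line and 0.22, 0.38, -0.03 and 0.46 in the FOXO3 line, a difference of 0.50 ± 0.121 (adjusted p = 0.00941) that was lost without the dye term. Of 44 autophagy genes 19 were lower and 1 higher in the FOXO4 line. Slc1a5 (-0.28 in the FOXO4 line, -0.62 in the FOXO3 line, 0.35 ± 0.080) and Asns (-0.13 in the FOXO4 line, -0.47 in the FOXO3 line, 0.34 ± 0.076) were higher in the FOXO4 line, and both calls were lost without the dye term.

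Among genes with higher values in the FOXO4 line were those of replication and ribosome building. Hk2, the hexokinase gene, stood at -0.10, -0.12, -0.03 and -0.01 in the FOXO4 line and -0.97, -1.0, -1.0 and -0.89 in the FOXO3 line, without overlap, a difference of 0.90 ± 0.063 (adjusted p = 4.19e-08). It was not called against time 0 in the FOXO4 line (adjusted p = 0.446). Cdca7 (0.83 ± 0.067), Dut, which removes dUTP (0.69 ± 0.074), Rrm2 (0.67 ± 0.061), the nucleolar gene Nop58 (0.67 ± 0.069), Ifrd2 (0.67 ± 0.111), the desaturase gene Scd2 (0.69 ± 0.053) and Pbp2 (0.75 ± 0.099) were higher in the FOXO4 line. Of 60 ribosome biogenesis genes 43 were higher in the FOXO4 line and none lower, with a median difference of 0.34, and of 45 S-phase genes 18 were higher and none lower. Here higher means a smaller fall, since both lists fell against time 0 in both lines. Of the 60, 30 fell in the FOXO4 line (median -0.17) and 54 in the FOXO3 line (median -0.54), with 1 rise in each. Of the 45, 32 fell in the FOXO4 line (median -0.24) and 40 in the FOXO3 line (median -0.49), with no rise. Of 30 genes of purine and pyrimidine synthesis 17 were higher and 2 lower, and of 25 heat shock factor targets 10 were higher and none lower. Against time 0 in the FOXO3 line 23 of the 30 fell and 2 rose, and 16 of the 25 fell and 2 rose.

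A few genes rose more in the FOXO4 line or went opposite ways. Mgst2 stood at 1.53, 1.65, 1.45 and 1.52 in the FOXO4 line and 0.91, 0.99, 0.66 and 0.94 in the FOXO3 line, without overlap, a difference of 0.66 ± 0.069 (adjusted p = 4.08e-06). Cnpy4 stood at 1.09 in the FOXO4 line and 0.40 in the FOXO3 line, a difference of 0.69 ± 0.068, and its second probe gave 0.89 at 8 h in the FOXO4 line. Called in opposite directions against time 0 were 13 genes, among them Insig1 (0.22 in the FOXO4 line, -0.28 in the FOXO3 line, a difference of 0.51 ± 0.062) and Tal1 (-0.29 in the FOXO4 line, 0.35 in the FOXO3 line, a difference of -0.64 ± 0.075), a factor gene of blood cell development. In the 13 the ratio of the FOXO4 line was at most 0.29 in size. Other genes of large change did not pass the test of a difference: Gzmb (0.22 ± 0.089, adjusted p = 0.163), Klf6 (-0.23 ± 0.118, adjusted p = 0.326), Tec (-0.03 ± 0.071, adjusted p = 0.917), Bcl2 (0.22 ± 0.074, adjusted p = 0.0722), Sod2 (-0.03 ± 0.066, adjusted p = 0.896) and Ero1b (0.05 ± 0.063, adjusted p = 0.801), which does not show that the lines acted alike. The difference of Bcl2 was called without replicate 1 of either line.

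**Figure D5:**
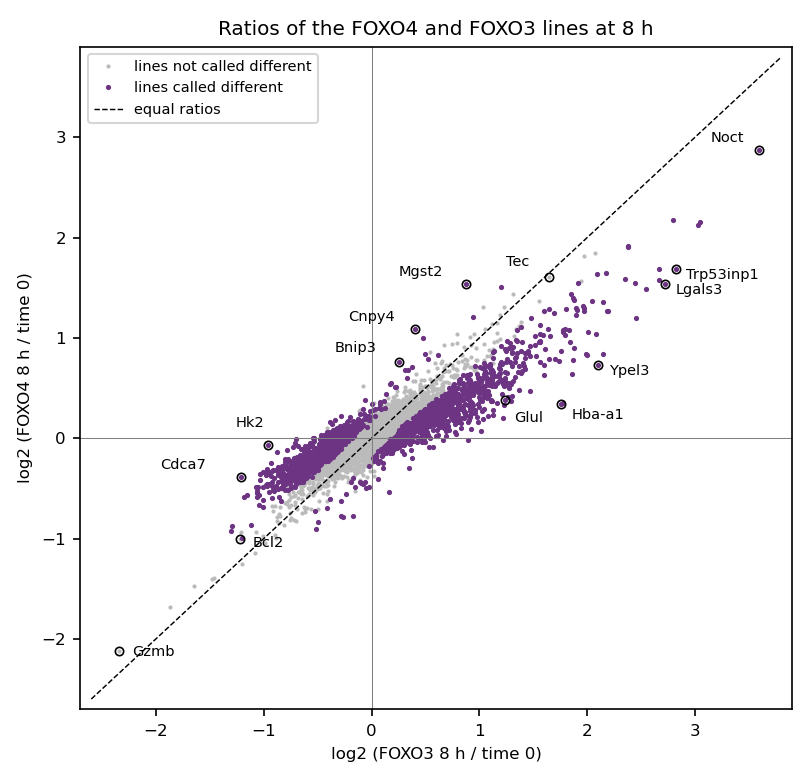
Each point is 1 of 17484 genes, with its fitted log2 ratio to time 0 at 8 h in the FOXO3 line (horizontal axis) and in the FOXO4 line (vertical axis). Purple genes were called different between the lines, grey ones were not, and the dashed line marks equal ratios. Most purple points lie between the dashed line and the horizontal axis, such as Ypel3 (0.73 in the FOXO4 line, 2.10 in the FOXO3 line), and Mgst2, Cnpy4 and Bnip3 lie above the line.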

How the data were processed

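RNA of 4 FOXO4-line cultures given 4-OHT for 8 h was hybridised with the line's time 0 RNA on 2-colour arrays, with 2 arrays per dye orientation. Per the file headers, the deposited scanner files hold spot intensity in Cy5 and Cy3 with local background, and the deposited table holds the authors' log2 ratios, used as an alternative. The labels gave the dye of each RNA, and scanner channel 1 was read as Cy5 because it followed the deposited Cy5 values more closely than the Cy3 values on all 16 arrays. Here the intensities were background-corrected with normexp (offset 50) and normalized by loess within each array. All 16 arrays were then fitted with limma 3.58.1 in R 4.3.3 (lmFit, eBayes) on 4 group means plus a dye term per gene. Each group mean was tested against 0 and differences as contrasts, two-sided, with Benjamini-Hochberg adjustment. A time 0 pool is 1 control sample, so its own spread is left out. A filter at 2 SDs over local background, in Cy5 or Cy3 and on 4 or more arrays, dropped 942 of 31769 gene probes, and a gene took its brightest probe. Of these probes 26000 had 1 symbol, and 5769 without one were not used. The procedure was tested on simulated data. The number of arrays limits the precision.

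Genes named are the 20 highest and 20 lowest at 8 h among called genes of 1 sign on 4 arrays, the 10 highest and lowest in each other comparison, up to 6 called members per list by adjusted p with up to 3 in the rarer direction, and a fixed set of known FOXO, glutamine and autophagy genes. Further list members were named for their role after their values were seen. The arrays, lists and tests were chosen with earlier results of these data known. Same-numbered replicates did not deviate together: correlations of residuals were -0.008 to 0.076 between 8 h and 2 h and -0.343 to 0.086 between the lines.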

Additional observations from a re-analysis of the deposited data

Results flagged for a closer look

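Of 269 genes examined, 9 had 1 array that lay far from the other 3, by Dixon's test at the 95% level. The ratios still held the dye effect, which splits the arrays by orientation, so the usual rate of 1 in 20 by chance does not apply. They were replicate 1 for Ccpg1 (1.39, highest) and Tcf3 (-0.14, highest), replicate 3 for Jak2 (0.77, lowest), Gart (-0.23, highest), Mrpl12 (-0.40, highest) and Pfkl (-0.21, highest), and replicate 4 for Csnk1e (0.52, highest), Klf6 (2.02, highest) and Zranb1 (0.68, highest), as log2 ratios of FOXO4 8 h over time 0.

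The times of the FOXO4 line differed by the test of the difference in 1869 genes. Among those named, values at 8 h minus 2 h were positive for Neurl3 (1.64), Ube2h (1.57), Anxa1 (1.52), Noct (1.44), Mgst2 (1.41), Spp1 (1.38), Pdlim5 (1.37), Tspan8 (1.34), Lancl3 (1.32) and Ugp2 (1.30). They were negative for Gzmb (-1.88), Tuba8 (-1.36), Baiap2 (-1.35), Srsf6 (-1.13), St6gal1 (-1.04), Hnrnpdl (-1.04), Srsf5 (-0.98), Ptgs1 (-0.97), Cmtm7 (-0.97) and Col5a1 (-0.89).

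The lines differed at 8 h by the test of the difference in 1862 genes. Values of the FOXO4 line minus the FOXO3 line were negative for Hba-a2 (-1.43), Hba-a1 (-1.42), Ypel3 (-1.38), Erbb3 (-1.30), Ccpg1 (-1.25), Vwa5a (-1.22), Lgals3 (-1.18), Etfbkmt (-1.17), Ypel5 (-1.15), Trp53inp1 (-1.14), Btg1 (-1.09), Sqstm1 (-0.97), Pik3ip1 (-0.89), Map1lc3b (-0.86), Glul (-0.85), Noct (-0.73), Foxo3 (-0.66), Sesn1 (-0.51), Bcl2l11 (-0.50), Cited2 (-0.46) and Gabarapl1 (-0.40). They were positive for Hk2 (0.90), Cdca7 (0.83), Pbp2 (0.75), Dut (0.69), Cnpy4 (0.69), Scd2 (0.69), Nop58 (0.67), Rrm2 (0.67), Ifrd2 (0.67), Mgst2 (0.66), Bnip3 (0.50), Slc1a5 (0.35) and Asns (0.34).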

How the results depend on the processing

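No called gene among those checked turned its sign, but the balance of higher and lower genes turned with centring on control spots against time 0 and with median centring between the lines. For 8 h against time 0, centring on control spots gave 758 higher genes and 1699 lower ones, median centring 1663 and 968, and no dye term 1608 in all, 914 higher and 694 lower. For 8 h against 2 h, the control spots gave 718 (546 higher, 172 lower), median centring 1001 higher and 257 lower, and no dye term 601 (425 higher, 176 lower). For the FOXO4 line against the FOXO3 line, the control spots gave 744 (275 higher, 469 lower), median centring 545 lower, no dye term 557 (247 higher, 310 lower) and scaling between arrays 1192 (591 higher, 601 lower). The other alternatives stayed within 1.5 times of each count, among them the deposited log2 table (3506 for 8 h against time 0). Leaving out 1 array gave 2529 to 2668 genes against time 0 (1347 to 1474 higher, 1173 to 1194 lower), 1442 to 1819 against 2 h (947 to 1158 higher, 493 to 661 lower) and 1429 to 1598 against the FOXO3 line (694 to 794 higher, 731 to 857 lower). The array titles number the samples alike at 2 h and 8 h, so same-numbered samples may or may not share a culture. The correlations of residuals given above do not settle this. Fits with the replicate number as a block differed in kind. A random block gave 3220 genes against time 0 (1692 higher, 1528 lower). A fixed block in the FOXO4 line gave 1776 against 2 h (1140 higher, 636 lower). A fixed block by the number shared between the lines gave 1982 against the FOXO3 line (999 higher, 983 lower). The cause of these shifts was not tested. Of 66 genes checked against time 0, calls lost under at least 1 alternative were those of Ulk1 (adjusted p = 0.285 with the control spots), Cdkn1b (adjusted p = 0.171 with the control spots), Slc1a5 (adjusted p = 0.167 without the dye term) and Pim1 (adjusted p = 0.065 to 0.104 without replicate 2, 3 or 4) in limma's test. All 4 of these calls were lost without the dye term. Between the lines, calls of Asns, Bnip3, Cited2, Noct, Sesn1 and Slc1a5 were lost under at least 1, and 5 of these were lost without the dye term. Signal limits what dim genes can show: 34.2% to 41.4% of probes were above the control spots.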
